A study of Mus musculus with 4 samples.

Results

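The C/EBP genes Cebpa, Cebpb, Cebpd, Cebpe and Cebpg were examined for H3K27me3, a repressive histone mark written by the Polycomb methyltransferase Ezh2. The 5 genes were chosen by name from the 21938 protein-coding genes of the annotation, and each was described by the rows that name it in the annotated peak tables and by all peaks in the gene or within 20 kb of it. The mark was profiled by CUT&RUN, in which an antibody directs a nuclease to its target and the released DNA is sequenced, in erythro-myeloid progenitors (EMPs). These cells are the yolk sac progenitors of definitive red cells, granulocytes and macrophages. They were sorted from E10.5 yolk sacs of C57BL/6 mice by KIT, CD41 and a further CD16 gate, without SCA1 and lineage markers. The genotype label reads Ezh2fl/fl with Tie2-Cre+/+ and adds wild type, and the cells were taken as wild type, as the study describes them. Tie2-Cre acts in endothelial cells and in the blood cells that arise from them. Of 4 libraries, 1 H3K27me3 library and 1 IgG library came from 500 EMPs, and 1 of each from 15000 EMPs. All 4 libraries shared stage, strain and genotype label and received no treatment, and how many yolk sacs were pooled for a library is not given in the sources used here.

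C/EBP proteins bind DNA as dimers through a basic region and a leucine zipper at their C-terminal end. C/EBPα, the product of Cebpa, commits progenitors to the granulocyte and macrophage lineages, and C/EBPε, the product of Cebpe, acts later in granulocytes, where it drives the genes of the secondary granules. C/EBPβ and C/EBPδ act in macrophages, in inflammation and in emergency granulopoiesis, and both also take part in fat cell formation. C/EBPγ lacks the activation domains of the others and works as their dimer partner.

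Of the 5 genes, only Cebpa carried H3K27me3 peaks, and only in the 15000-EMP library. That library had 2 peaks at Cebpa, an upstream peak of 808 bp and a peak of 573 bp inside the gene, whereas the 500-EMP library had 0. Cebpb, Cebpd, Cebpe and Cebpg had 0 peaks in the gene or within 20 kb in either library. No row of the 500-EMP annotated table and 2 rows of the 15000-EMP table named a C/EBP gene, both of them Cebpa. Since the peak files used here hold positions without read counts, a gene without a peak may still carry H3K27me3 below the threshold of the peak caller.

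The sequences at the Cebpa peaks are shown first, because the peaks lie at the ends of a CpG-rich stretch that holds the gene start. CpG dinucleotides are in capitals. The first run is the central 300 bases of the upstream peak (GRCm38, plus strand, chr7:35117188-35117487). The second is the coding part of the peak inside the gene (plus strand, chr7:35120317-35120495, 179 bases), which is the end of the longer annotated reading frame.
Cebpa upstream peak: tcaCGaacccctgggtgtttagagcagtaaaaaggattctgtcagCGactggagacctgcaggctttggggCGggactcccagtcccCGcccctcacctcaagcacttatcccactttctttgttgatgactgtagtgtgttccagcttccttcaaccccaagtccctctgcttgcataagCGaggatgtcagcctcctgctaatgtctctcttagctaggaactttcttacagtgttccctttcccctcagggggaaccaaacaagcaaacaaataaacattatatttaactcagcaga
Cebpa peak inside the gene: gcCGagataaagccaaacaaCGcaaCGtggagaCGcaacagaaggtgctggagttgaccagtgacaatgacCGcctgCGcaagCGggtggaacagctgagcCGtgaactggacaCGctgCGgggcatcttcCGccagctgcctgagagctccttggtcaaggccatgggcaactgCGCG
The upstream run holds 5 CpGs and the coding run 13 CpGs.

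The promoters of Cebpa and Cebpb are shown beside them, to compare a start with peaks on either side and a start without any. Both are the 250 bases before the start in the RefSeq promoter table (GRCm38.p6, plus strand), at chr7:35119043-35119292 for Cebpa and chr2:167688665-167688914 for Cebpb.
Cebpa promoter: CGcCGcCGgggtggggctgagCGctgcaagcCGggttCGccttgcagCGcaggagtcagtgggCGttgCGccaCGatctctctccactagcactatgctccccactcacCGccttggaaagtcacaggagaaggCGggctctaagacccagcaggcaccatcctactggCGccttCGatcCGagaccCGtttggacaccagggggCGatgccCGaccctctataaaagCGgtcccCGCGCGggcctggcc
Cebpb promoter: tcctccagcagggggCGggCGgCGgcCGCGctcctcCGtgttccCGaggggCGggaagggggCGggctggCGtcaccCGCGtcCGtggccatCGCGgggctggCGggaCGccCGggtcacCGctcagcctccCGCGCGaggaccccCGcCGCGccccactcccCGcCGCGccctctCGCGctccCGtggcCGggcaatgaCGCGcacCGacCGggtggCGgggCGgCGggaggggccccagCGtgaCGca
The Cebpa run holds 22 CpGs and the Cebpb run 41 CpGs, and neither was covered by a peak in either library. The table matched 3 of the 5 genes. The third was Cebpg, with 29 CpGs in the 250 bases before its start, and Cebpd and Cebpe had no entry.

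The position of the Cebpa peaks was then examined. Cebpa lies on the plus strand of chromosome 7 from 35119293 to 35121928 (mm10, GENCODE vM21; ENSMUSG00000034957). The upstream peak ran from 35116934 to 35117741, that is from -2359 to -1552 bp relative to the gene start, and overlapped no annotated gene. The second peak ran from 35120317 to 35120889, from 1024 to 1596 bp after the start, and lay wholly in exon sequence, with 179 bp in the coding region and the rest in the 3′ UTR. The 2 peaks were separated by 2575 bp that held the gene start, the 5′ UTR and most of the coding region. In the authors' annotation the upstream peak stood at 1560 bp from Cebpa, and the inner peak, classed as inside, at 1014 bp, which equals its distance from the start of the Cebpa transcript that begins at 35119303.

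The gap between the peaks took in most of the CpG-rich part of the locus. It held 249 CpGs in 2575 bp, with a CpG observed-to-expected ratio of 0.86, the number of CpGs relative to that given by the C and G content. The ratio was 0.31 in the upstream peak, which held 14 CpGs, and 0.73 in the inner peak, which held 38. Over all 15269 peaks of the 15000-EMP list on placed chromosomes the median ratio was 0.28. The upstream peak was thus close to the median, with 56.2% of peaks lower, whereas 97.96% of peaks were lower than the inner peak. In bins of 200 bp, every bin from 1400 bp before to 1400 bp after the Cebpa start held at least 13 CpGs. The upstream peak ended before this run began, and the inner peak covered its downstream end.

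**Figure D1:**
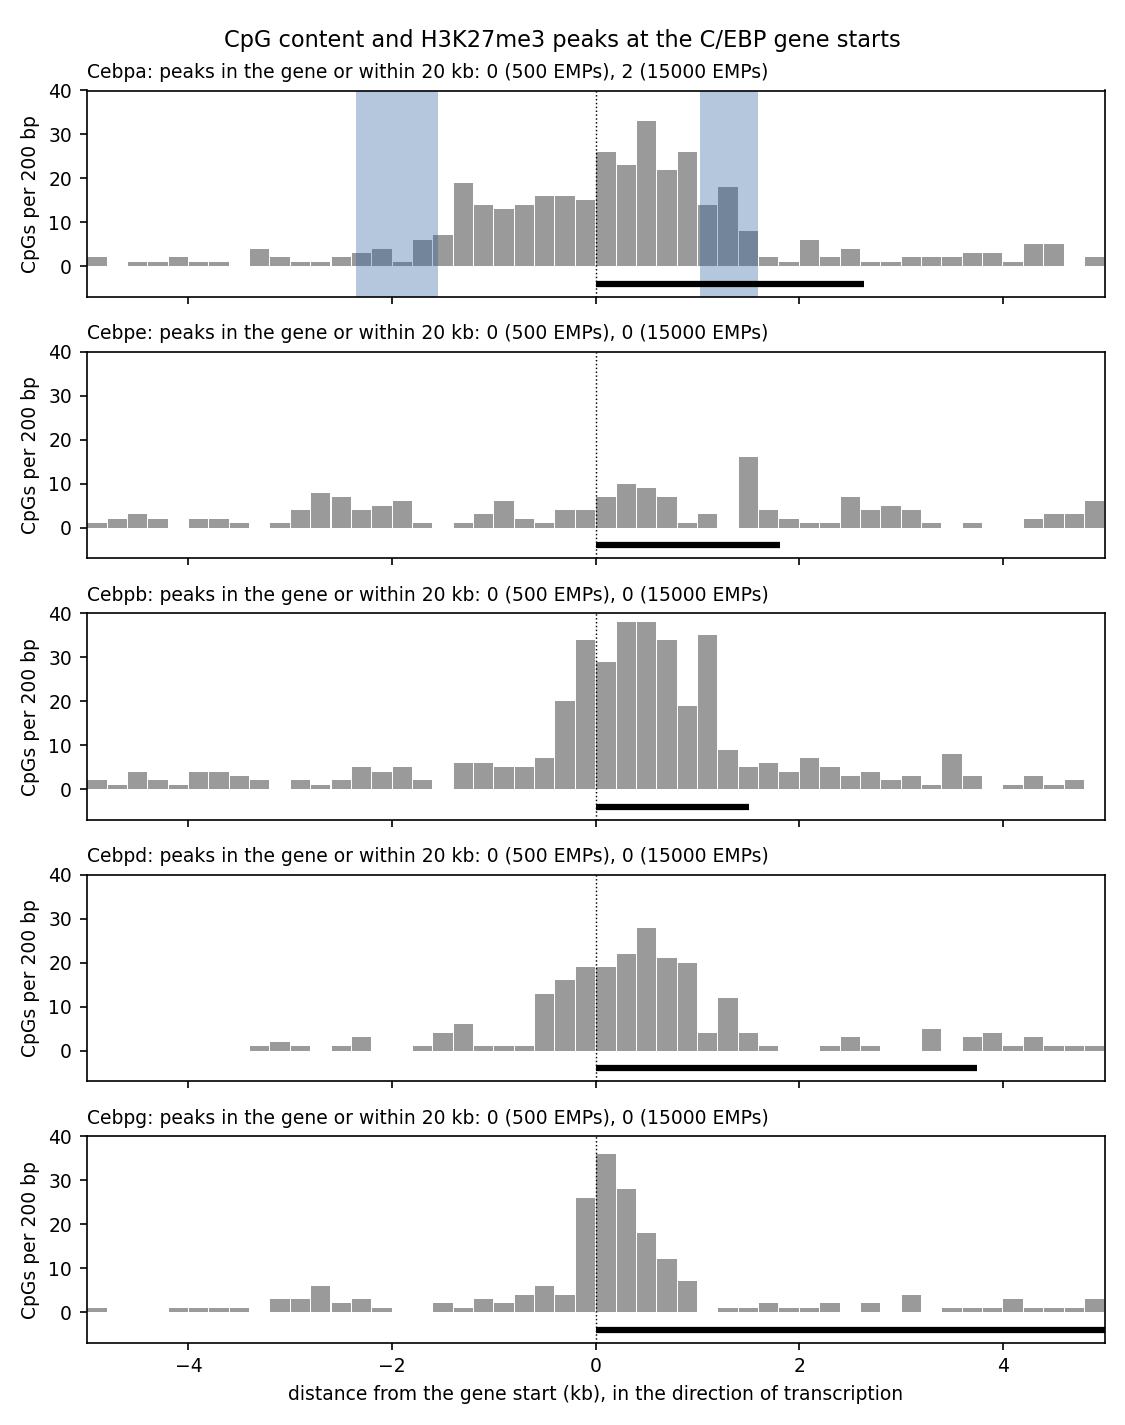
CpG dinucleotides per 200 bp (grey bars, y axis) against the distance from the gene start in kb (x axis) for the 5 C/EBP genes, with H3K27me3 peaks of the 15000-EMP library shaded blue, the start as a dotted line and the gene, or its part inside the plot, as a black bar. The 2 Cebpa peaks lie at the ends of the CpG-rich run of 2800 bp around its start, and the other 4 genes have no shaded peak.

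Of the other C/EBP genes, Cebpb, Cebpd and Cebpg also had CpG-rich starts, and Cebpe did not. Within 500 bp of the start on either side, the CpG observed-to-expected ratio was 1.01 for Cebpb, 0.95 for Cebpg, 0.89 for Cebpa and 0.86 for Cebpd, all in the highest of 5 equal groups of protein-coding genes ranked by this ratio. Cebpe was lower, with a ratio of 0.37 in the second lowest group. The run of 200-bp bins with at least 10 CpGs at the start was longest at Cebpa (2800 bp), followed by Cebpb and Cebpd (1600 bp each) and Cebpg (1000 bp). At Cebpe the bin at the start held 7 CpGs, below this limit. Among all genes of the highest group, 10.7% had a peak within 3 kb of the start with 500 EMPs and 16.9% with 15000 EMPs. In the group that holds Cebpe the shares were 5.15% and 10.6%, and the highest shares, 18% and 31.4%, were in the middle group.

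The count of C/EBP genes with a peak was next set beside all protein-coding genes. Within 3 kb of the gene start, 1 of 5 C/EBP genes had a peak with 15000 EMPs, where 17% of protein-coding genes did, and 0 of 5 with 500 EMPs, where 9.92% did. In the gene or within 20 kb, the C/EBP count was again 1 with 15000 EMPs against 30.1% of all genes, and 0 with 500 EMPs against 18.6%. With 5 genes, 1 gene is a share of 20%, so the counts lay near the background in both libraries. By the distance in the authors' tables, 1 of 5 was within 3 kb with 15000 EMPs against 16.6% of all genes, and 0 with 500 EMPs against 9.66%. No C/EBP gene had a peak across its start, against 1.4% of all genes with 500 EMPs and 8.63% with 15000 EMPs. When peaks less than 3 kb apart were joined, the Cebpa peaks became 1 peak of 3956 bp that covered the start. With a limit of 1 kb in place of 3 kb no C/EBP gene had a peak. At that limit 7.39% of all genes had one with 500 EMPs and 15.2% with 15000 EMPs. Each H3K27me3 group was 1 library, so there was no replicate spread and no test.

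Cebpa was lightly covered for a gene with a peak. Of the 6001 bp centred on its start, 1381 bp (23.0%) lay under 15000-EMP peaks. Over the 3728 protein-coding genes with a peak in this window the median was 2743 bp, and 25.6% of them had less than Cebpa. Peaks lay across the start of 1893 of these genes (50.8%). Peaks on both sides of the start with none across it, as at Cebpa, were found at 729 genes, which is 19.6% of those with a peak and 3.32% of all protein-coding genes. With 500 EMPs no C/EBP gene had this pattern, against 3.63% of all genes. Coverage over the 3728 genes was 32.6% at the centre of the upstream Cebpa peak, 50.8% at the start and 66.8% at the centre of the inner peak.

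**Figure D2:**
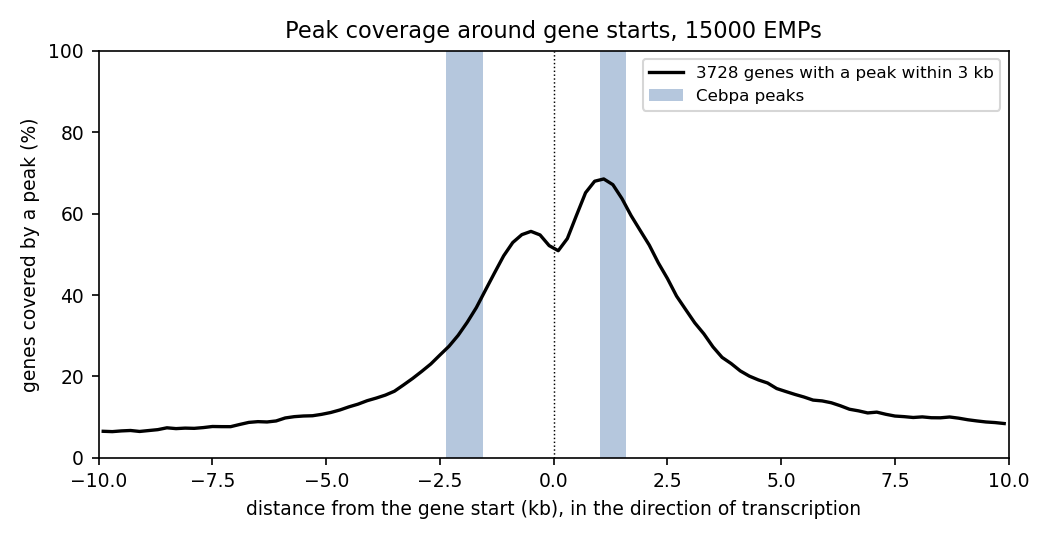
Percent covered at each distance from the start, over the 3728 protein-coding genes that had a 15000-EMP peak near it (black line, 200-bp bins, y axis in percent, x axis in kb), with the 2 Cebpa peaks shaded. The inner Cebpa peak spans the highest bin of the line (68.5%) and the upstream peak on its rising side, while the Cebpa start itself is uncovered.

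By a fixed measure of likeness, the Jaccard index of covered bases in the strand-oriented window of 10 kb on either side of the start, the genes closest to Cebpa in the 15000-EMP library were Pgap1, Tshz1 and Dnajb5. Their indices were 0.58, 0.51 and 0.49, out of 4467 other genes with a peak in the window. Pgap1 shared 1018 of the 1381 covered bases of Cebpa. As at Cebpa, peaks of the 500-EMP list covered 0 bp in these windows at each of the 3 genes.

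The libraries differed at Cebpa. The nearest 500-EMP peak lay 66.7 kb from the upstream Cebpa peak and 63.5 kb from the inner one, so 0 of the 2 peaks were shared. A gene with a peak within 3 kb of its start with 15000 EMPs and none with 500 EMPs was not rare, at 7.17% of protein-coding genes. Among the 3168 peaks of the 15000-EMP list between 500 and 1000 bp wide, a range that holds both Cebpa peaks, 473 (14.9%) overlapped a 500-EMP peak, against 99% of the 875 peaks wider than 5000 bp. The caller's p-value limit was 0.05 for 15000 EMPs and the stricter 0.01 for 500 EMPs, PCR cycles, read length and sequencer differed, and 500 EMPs were sequenced less deeply and aligned less well, per the study's reporting summary. Cell number, threshold, depth and these library settings therefore cannot be told apart at Cebpa. In the printed commands each threshold stands beside a file of the opposite cell number, and the lists were used as they are labelled.

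The neighbourhood of Cebpa was mapped next. The closest further peaks lay downstream, at Slc7a10, an amino acid transporter gene whose start is 67.1 kb from that of Cebpa, and at Lrp3, a gene of the LDL receptor family whose start is 96.2 kb away. Peaks covered 4338 bp around the start of Slc7a10 and 4431 bp around that of Lrp3 with 15000 EMPs, against 1381 bp at Cebpa in the same window of 3 kb on either side. With 500 EMPs these starts had 3 and 4 peaks, which covered 1199 and 548 bp. Each of the Lrp3 peaks was 137 bp wide, the smallest width in the 500-EMP list. The 500-EMP library thus had peaks on this part of chromosome 7, the wider ones at Slc7a10, while it had none at Cebpa. Between Cebpa and Slc7a10 neither library had a peak in the 4 kb centred 37 kb downstream of the Cebpa start, the place of the known enhancer of Cebpa in blood progenitors. The nearest peak to its centre lay 27.7 kb away with 15000 EMPs and 28.1 kb away with 500 EMPs.

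**Figure D3:**
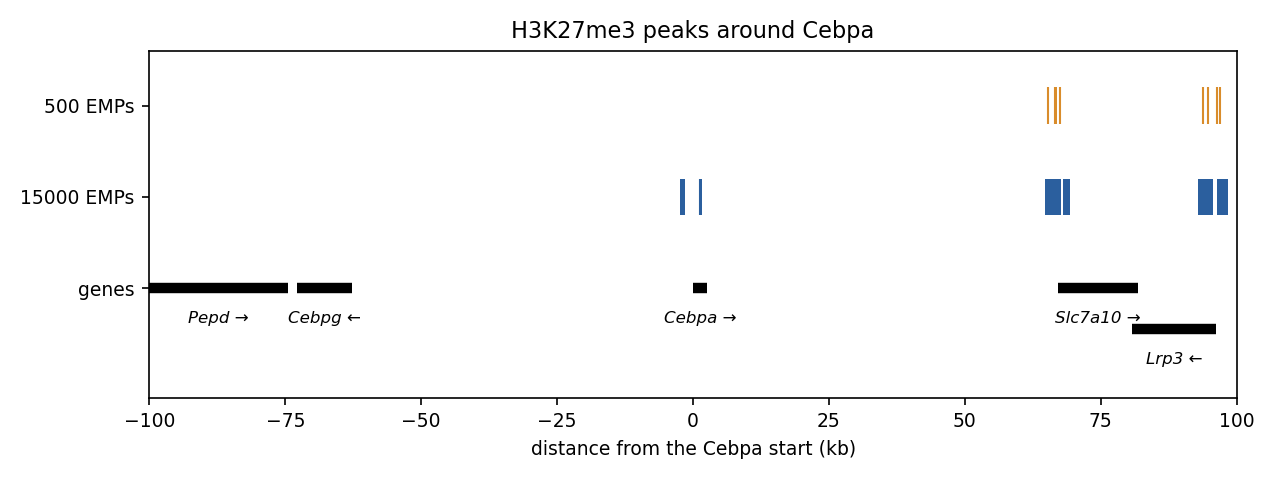
H3K27me3 peaks of the 500-EMP (orange) and 15000-EMP (blue) libraries and protein-coding genes (black, arrows for the direction of transcription) against the distance from the Cebpa start in kb; the narrowest peaks are drawn at the width of a line. Peaks at Slc7a10 and Lrp3 appear in both libraries, the 2 Cebpa peaks only with 15000 EMPs, and Cebpg has none.

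Cebpg is the chromosomal neighbour of Cebpa. It lies on the minus strand of chromosome 7 from 35046422 to 35056573 (ENSMUSG00000056216), and its start lies at -62.7 kb from that of Cebpa. Its nearest peak with 15000 EMPs was the upstream Cebpa peak, at 60.4 kb from its start, and with 500 EMPs the peak before Slc7a10, at 127.9 kb. On its other side the nearest peak, at Chst8, was 241.5 kb away with 15000 EMPs and 243.4 kb with 500 EMPs. Both the Cebpg start and the start of Pepd, the protein-coding gene whose end lies 1713 bp from the end of Cebpg, were without a peak.

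Cebpe, on the minus strand of chromosome 14 from 54710360 to 54712174 (ENSMUSG00000052435), had its nearest peak at Ajuba in both libraries. The distance from the Cebpe start was 134.96 kb with 15000 EMPs and 137.9 kb with 500 EMPs, so the libraries nearly coincided here. This 15000-EMP peak was 3711 bp wide, and the 500-EMP peak of 475 bp lay within its bounds. Cebpe had 8 other protein-coding starts within 100 kb, where the median gene had 3, and 0 peaks fell in that reach in either library. No peak within 100 kb was found for 66.1% of all genes with 500 EMPs and 49.8% with 15000 EMPs. Its neighbours 1700123O20Rik, Gm29776 and Slc7a8, all within 20 kb, had no peak within 3 kb of the start either.

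Cebpb, on chromosome 2 from 167688915 to 167690418 (ENSMUSG00000056501), had a nearest peak 127.9 kb away with 15000 EMPs and 449.3 kb away, at Ptgis, with 500 EMPs. Cebpd, on chromosome 16 from 15887286 to 15891031 (ENSMUSG00000071637), was the most distant from any peak in both libraries. Its nearest peak lay 311.5 kb away with 15000 EMPs and 1180.7 kb away, at the Snai2 locus, with 500 EMPs. The stretch without a peak around the Cebpd start measured 1112.5 kb with 15000 EMPs and 2515.7 kb with 500 EMPs, against 488.8 and 1021.7 kb around Cebpb and 348.1 and 541.8 kb around Cebpe. Cebpd also had few genes around it, with 8 other protein-coding starts within 500 kb, where the median gene had 15. Tmem189 and Spidr, which overlap Cebpb and Cebpd in the opposite direction, had no peak within 3 kb of the start.

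In order of the distance from the start to the nearest 15000-EMP peak, the genes were Cebpa (1.02 kb), Cebpg (60.4 kb), Cebpb (127.9 kb), Cebpe (134.96 kb) and Cebpd (311.5 kb). Cebpb and Cebpe differed little, and with 1 library no spread can be set beside the order. Over all protein-coding genes the median was 99.1 kb with 15000 EMPs and 200.9 kb with 500 EMPs. With 15000 EMPs, 15.3% of genes had a nearer peak than Cebpa and 75.9% a nearer peak than Cebpd. With 500 EMPs, the order was Cebpa (65.1 kb), Cebpg (127.9 kb), Cebpe (137.9 kb), Cebpb (449.3 kb) and Cebpd (1180.7 kb), so that Cebpb and Cebpe changed places.

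**Figure D4:**
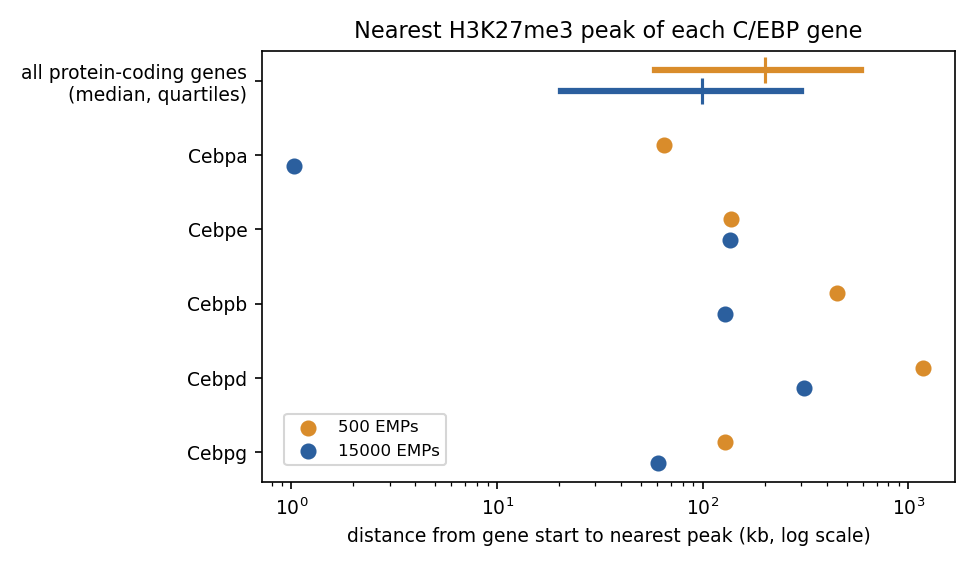
Distance in kb (log axis) from the start of each C/EBP gene to the nearest peak in the 500-EMP (orange) and 15000-EMP (blue) libraries, 1 library each, with the median (tick) and quartiles (line) over all protein-coding genes above. Cebpa is closest and Cebpd farthest in both libraries, and the points of Cebpe nearly coincide.

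Other genes of the C/EBP network were then counted in the same way. Among 11 partners and regulators of C/EBP proteins, 2 had a peak within 3 kb of the start with 500 EMPs (Batf3 and Trib2) and 3 with 15000 EMPs, where Trib1 was added. These are 18.2% and 27.3% of the list, against 9.92% and 17% of all protein-coding genes. With a limit of 1 kb the 500-EMP count was 0, against 7.39% of all genes. Trib1 and Trib2 encode pseudokinases that direct C/EBPα to degradation, and Batf3 encodes a bZIP factor of dendritic cells. Peaks around the start covered 890 bp at Trib1, 1121 bp at Trib2 and 3679 bp at Batf3 with 15000 EMPs, so Cebpa lay between Trib2 and Batf3. Ddit3, which encodes the C/EBP homologous protein, and Atf4 and Cop1 had no such peak.

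Relatives with the same bZIP fold were counted next, without those in the list of partners, such as Batf3, Ddit3 and Atf4. Among the 39 relatives counted, 5 (12.8%) had a peak with 500 EMPs and 15 (38.5%) with 15000 EMPs, against 0 and 1 of the 5 C/EBP genes. The share with 15000 EMPs stood above the 17% of all protein-coding genes, whereas that with 500 EMPs stood near the 9.92%. In the AP-1 list, Fosl1 had a peak in both libraries and Fos, Fosb and Fosl2 with 15000 EMPs alone, so that 4 of 7 had one, while Jun, Junb and Jund had none. Hlf and Nfil3, of the PAR and Nfil3 group, had a peak with 15000 EMPs alone. Of 15 ATF and CREB genes, Creb5 had a peak in both libraries and Atf3 and Creb3l1 with 15000 EMPs alone. In the list of Maf, Nfe2 and Bach genes, Mafa and Nrl had one in both libraries, and Maf, Nfe2l3 and Bach2 had one with 15000 EMPs alone. The widest coverage was at Creb5 (5492 bp), compared with 1381 bp at Cebpa.

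Genes of programmes in which C/EBP proteins act and a general list of blood transcription factors were counted last. Each count was set against the same 9.92% of all genes with 500 EMPs and 17% with 15000 EMPs. Of 21 granulocyte and macrophage genes, Mmp9 and Cd14 had a peak in both libraries (9.52%). That share lay near that of all genes with 500 EMPs and below it with 15000 EMPs. Granule genes other than Mmp9, such as Mpo, Elane, Prtn3, Ctsg, Ltf, Lcn2, Camp, Ngp and Mmp8, had none. The myeloid cytokine receptor genes Csf3r, Csf1r and Csf2ra were without a peak as well. Of 12 adipocyte and liver genes, Ucp1 had a peak in both libraries and Pparg, which acts with C/EBPα in fat cells, with 15000 EMPs alone, shares of 8.33% and 16.7% that lay near those of all genes. Among 20 blood transcription factors, Gfi1 and Erg had a peak in both libraries and Gata2, Fli1 and Irf8 with 15000 EMPs alone, so that the share was 10% with 500 EMPs, near that of all genes, and 25% with 15000 EMPs. Spi1 and Runx1, which act with Cebpa in myeloid progenitors, had none. The lists hold few genes, and no test was made on them.

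**Figure D5:**
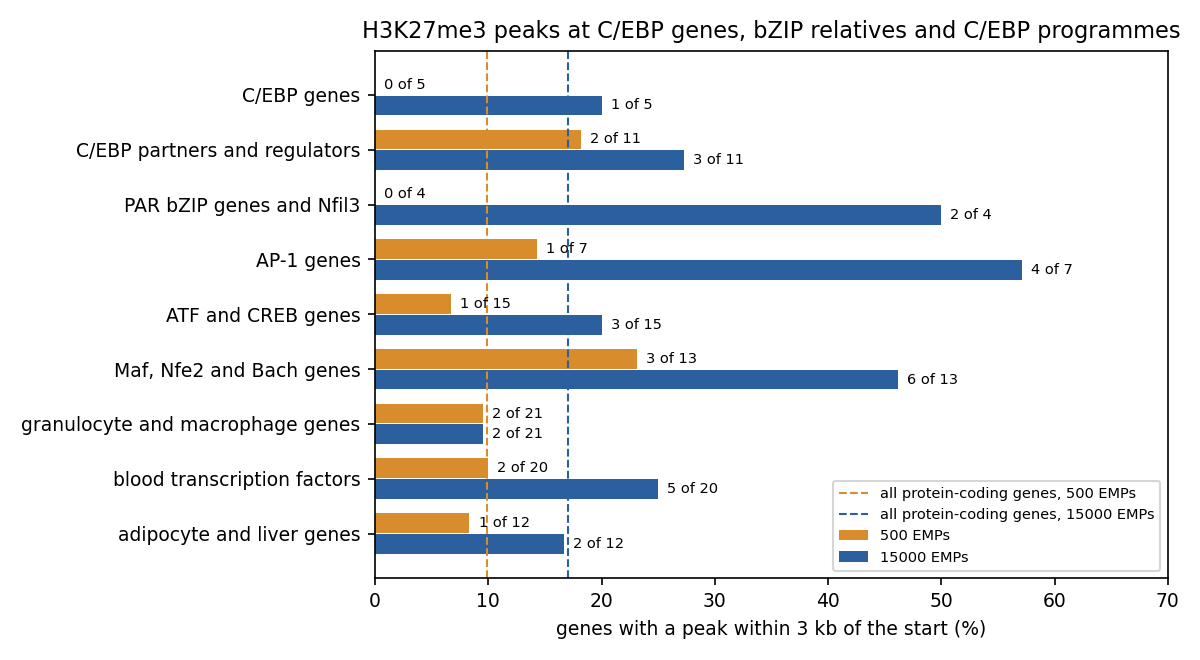
Percent of genes with an H3K27me3 peak within 3 kb of the start (x axis) in each list with 500 EMPs (orange) and 15000 EMPs (blue), with the counts beside the bars and the share of all protein-coding genes as dashed lines. The C/EBP bars, 0 of 5 and 1 of 5, are set against the dashed lines at 9.92% and 17%, and the AP-1 bar for 15000 EMPs stands at 4 of 7 with this limit of 3 kb and would be 1 of 7 at 1 kb.

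The label of the cells was checked by genes that mark them. None of 7 EMP genes (Kit, Itga2b, Fcgr2b, Fcgr3, Runx1, Myb and Gata1) had a peak within 3 kb of the start in either library, whereas 3 of 5 mesenchymal genes (Pdgfra, Col1a1 and Twist1) and 3 of 6 epithelial and endoderm genes (Epcam, Cdh1 and Krt8) had one in both. Of 5 endothelial genes, Kdr had a peak with 15000 EMPs alone. With 9.92% and 17% of all genes having such a peak, lists this short without one say little about the label. The peak lists held 10223 peaks for 500 EMPs and 15282 for 15000 EMPs.

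The windows at Cebpa were searched on both strands for the C/EBP motif TTGCNNAA and for CCAAT, the sequence that gave the family its name. Only exact matches were counted, so a window without a match may still hold a C/EBP site that departs from the motif. The upstream peak held 1 match to TTGCNNAA, TTGCATAA at chr7:35117360-35117367, inside the run shown above. A match was found in 29.6% of windows of the same length and place at the 21938 protein-coding genes. The inner peak held 0 matches, against 22.3% of such windows. Among the 300-bp promoters of Cebpa, Cebpb and Cebpg, 0 held TTGCNNAA, which 10.8% of the 32851 promoters of the table did, and Cebpg held 2 matches to CCAAT, which 37.4% of promoters had at least once. Neither Cebpa peak held CCAAT, against 69.5% and 54% of the windows placed like the upstream and the inner peak.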

How the data were processed

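H3K27me3 CUT&RUN libraries of 500 and 15000 EMPs (17 and 16 PCR cycles, paired-end reads of 76 and 59 bp) had 1 library per group, and the IgG libraries entered only as the authors' background for peak calling. The authors aligned reads to mm10 with Bowtie2 2.2.1, called broad peaks per library with MACS2 2.1.2 at a p-value threshold of 0.01 (500 EMPs) or 0.05 (15000 EMPs), and annotated them with ChIPpeakAnno. The deposited peak files used here give peak positions, a gene, a category and a distance in bp, without counts or scores, so precision per peak is unknown. Coverage tracks were not analysed here. No statistical test was possible.

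Peaks were placed on GRCm38 with GENCODE vM21 (outermost gene start, placed chromosomes) and compared by overlap of at least 1 bp, in Python 3.11.15 with NumPy 2.4.6 and pysam 0.24.0. No peak on placed chromosomes ran past a chromosome end. The window functions were tested on simulated peaks. Gene names came from the file and GENCODE. All 5 genes were named. Of each list, all genes with a peak were named where 6 or fewer, except any not reported here, and the 3 genes most like each C/EBP gene with a peak were taken; list genes without a peak, and genes at flanking peaks, were named after their values were seen. Members and lists were chosen with earlier results of these data known. Alternatives were the start limit, the window, the gene start, the authors' distance, the shortest peaks, joining and the minimum overlap.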

Additional observations from a re-analysis of the deposited data

How the results depend on the processing

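In all, 40 values were recomputed under 96 alternatives, of which 79 stayed within 1.5 times the reported value, or within its 95% Wilson interval for shares of all genes, and 17 did not. The Cebpa peaks were found with windows of 10 and 50 kb, with any transcript start, by the authors' distance and without the shortest peaks. With a limit of 1 kb from the start, 0 C/EBP genes had a peak with 15000 EMPs, since the nearer Cebpa peak begins at 1024 bp. When peaks within 3 kb were joined, the Cebpa peaks became 1 peak of 3956 bp that covered the start, an alternative that for the start was chosen after the data had been seen. The share of protein-coding genes with a peak was 7.39% and 10.6% at limits of 1 and 5 kb and 8.96% without the shortest peaks with 500 EMPs, and 15.2% and 17.9% at 1 and 5 kb with 15000 EMPs. At 1 kb, the 500-EMP counts were 0 for C/EBP partners, AP-1 and adipocyte and liver genes, and 1 each for Maf, Nfe2 and Bach genes, granulocyte and macrophage genes and blood transcription factors. At 5 kb, 1 PAR or Nfil3 gene had a 500-EMP peak, and at 1 kb the AP-1 count with 15000 EMPs was 1. These counts change by the construction of the limit. No paired analysis was possible because each group had 1 library. The effect of depth was not tested, as the peak files used here hold no counts.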

Other observations

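Among the genes of the lists other than the cell markers, 28 had a 15000-EMP peak within 3 kb of the start, and 5 of them, Cebpa included, had peaks on both sides of the start with none across it, a pattern found at 19.6% of all genes with such a peak. The other 4 were Fos and Fosb, which encode subunits of AP-1, Irf8, a factor of monocytes and dendritic cells, and Mmp9, which encodes a gelatinase. The peaks came within 28 bp of the start at Irf8 and 22 bp at Mmp9, against 1024 bp at Cebpa, 1195 bp at Fos and 2663 bp at Fosb. This pattern was looked for after the Cebpa peaks had been seen, and no test was made on it.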
